A study of Homo sapiens with 6 samples.

Results

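The snoRNA host genes are genes whose introns carry small nucleolar RNAs (snoRNAs) or the related small Cajal body RNAs (scaRNAs). They were chosen by name, as all genes called SNHG with a number in GENCODE 44 together with GAS5, DANCR, ZFAS1 and EPB41L4A-AS1. The rule itself used no expression value, but it was set with earlier results of these data known. It took 32 of the 63140 genes in the files, which lie on 15 chromosomes. RNA-seq was performed on BT-549, an established human triple negative breast cancer (TNBC) line without a transgene in these samples. The cells were kept for 24 h in adipocyte conditioned medium (ACM, 3 libraries) or in unconditioned medium (UCM, 3 libraries), and the comparison asks how secretions of fat cells alter gene expression in tumor cells. ACM had been conditioned by OP9 cells, a mouse line that forms adipocytes, while they differentiated in a medium supplemented with oleate, albumin and insulin. The sample labels give 50% ACM, whereas the supplement of the study describes undiluted ACM. The formula of UCM is not given in the sources used here, so base medium, serum, oleate and insulin cannot be told apart from adipocyte secretions. The labels speak of 3 replicates per condition in a multi-well plate and of nothing more, so the p-values measure the spread between these wells.

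When the transcript of a snoRNA host gene is spliced, the snoRNAs are released from the introns, bound by snoRNP proteins, and then guide chemical modification of ribosomal RNA. Box C/D snoRNAs direct methylation of ribose, box H/ACA snoRNAs direct conversion of uridine to pseudouridine, and scaRNAs act on spliceosomal RNAs. The spliced host RNA itself often has no long reading frame and is degraded by nonsense-mediated decay when it is translated, and many host genes begin with a terminal oligopyrimidine (TOP) tract, as do ribosomal protein genes. It is the spliced and polyadenylated host RNA that these libraries measure, not the snoRNA.

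GENCODE 44 places 145 snoRNA or scaRNA genes wholly inside the members on the same strand, with a median span of 83 bases. Of these, 84 lie in SNHG14, the long transcript of the Prader-Willi region, and 16 members hold 1 each. GAS5 holds none in GENCODE 44 and 11 in RefSeq. In the files 139 of the 145 small RNA genes have an effective length of 0 in every library, and only 7 have any count, with 24 counts in total over the 6 libraries. SNORA71B, inside SNHG17, had the most, with 6, 1 and 0 in the ACM libraries and 3, 0 and 2 in the UCM libraries. None of the 145 reached the filter on low counts, so the level of the mature small RNAs was not measurable in these libraries.

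The starts of 9 host genes are shown because a TOP tract is a sequence feature that many of them share and that the rule for choosing members did not use. Each line runs 5′ to 3′ on the strand of the gene, with 20 bases before the annotated start and 30 bases from it. Capitals mark the unbroken run of C and T that begins with C at the start itself. The first 8 lines use the RefSeq start (GRCh38.p14): SNHG12 at chr1:28581844-28581893 on the minus strand, SNHG4 at chr5:139274081-139274130 on the plus strand, SNHG32 at chr6:31834896-31834945 on the plus strand, SNHG5 at chr6:85678704-85678753 on the minus strand, SNHG19 at chr16:2155329-2155378 on the minus strand, ZFAS1 at chr20:49278622-49278671 on the plus strand, DANCR at chr4:52712374-52712423 on the plus strand and SNHG1 at chr11:62855856-62855905 on the minus strand. SNHG29 at chr17:16439017-16439066 on the plus strand uses the start of the GENCODE 44 canonical transcript (GRCh38).
SNHG12: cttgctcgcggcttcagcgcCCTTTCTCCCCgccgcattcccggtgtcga
SNHG4: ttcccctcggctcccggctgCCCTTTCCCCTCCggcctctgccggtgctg
SNHG32: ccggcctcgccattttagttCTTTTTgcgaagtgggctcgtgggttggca
SNHG5: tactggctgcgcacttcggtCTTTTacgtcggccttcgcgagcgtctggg
SNHG19: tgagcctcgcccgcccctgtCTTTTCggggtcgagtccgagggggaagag
ZFAS1: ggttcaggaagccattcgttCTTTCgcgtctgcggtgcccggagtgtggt
DANCR: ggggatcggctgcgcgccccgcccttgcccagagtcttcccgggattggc
SNHG1: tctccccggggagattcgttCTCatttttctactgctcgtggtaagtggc
SNHG29: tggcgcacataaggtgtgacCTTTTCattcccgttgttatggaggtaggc

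The runs were 13 bases in SNHG4, 11 in SNHG12, 6 in SNHG32, SNHG19 and SNHG29, 5 in SNHG5 and ZFAS1, 3 in SNHG1 and 0 in DANCR. A run of at least 5 bases stood at the RefSeq start of 7 of the 28 members with an entry (SNHG12, SNHG18, SNHG4, SNHG32, SNHG5, SNHG19 and ZFAS1), beside 4.07% of 35116 RefSeq starts. At the GENCODE 44 canonical start it stood in 4 of 32 members, among them SNHG29, ZFAS1 and SNHG12, beside 5.12% of 14365 starts. Among ribosomal protein genes, taken by symbol and so including some kinase, read-through and binding protein genes, 59 of 97 (60.8%) had such a run at the canonical start. When the run was allowed to lie anywhere within 20 bases of the RefSeq start, 20 of 28 members held one, beside 48.5% of all starts. The stricter rule was chosen after the sequences had been seen, and both are descriptions of annotated starts. In the window from 250 bases before to 50 bases after the RefSeq start, searched on both strands, CACGTG was found in SNHG7 and SNHG30, 2 of 28, beside 7.26% of all windows. TGACGTCA was found in 0 of 28, beside 1.85%, and TGATGNAA in 0 of 28, beside 3.62%.

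The ACM libraries held 21053214, 18011677 and 18378771 expected counts and the UCM libraries 20975771, 18591257 and 17135270, in the order of replicates 1, 2 and 3 that is kept for all values. Levels are given as CPM, the counts scaled by library size and its TMM factor, or as TPM, which is also divided by effective length. Replicate 1 stood apart in UCM, and less clearly in ACM. The chi-square statistic of the counts per degree of freedom was 21.5 between UCM replicates 1 and 2, 19.9 between 1 and 3, and 2.32 between 2 and 3. In ACM it was 18.8, 15.6 and 13.1 for the same pairs. Of the 27 tested members 21 had their highest CPM in replicate 1 of ACM, and 21 of 27 in replicate 1 of UCM. Replicate 3 held the lowest CPM for 17 members in ACM and 18 in UCM. The shares over all genes tested were not computed. Over all 1590 tested long noncoding RNA (lncRNA) genes the summed CPM was highest in replicate 1 of each medium. It was 12855.1, 11287.6 and 10627.5 in ACM and 12272.5, 10600.7 and 10765.0 in UCM. That of the tested protein-coding genes was not highest in replicate 1 of either medium. The part of the replicate 1 difference in the results was not tested, and results are given with and without replicate 1 where it bears on them.

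The label of the cells as epithelial was compared with marker genes. VIM, an intermediate filament of mesenchymal cells, had a mean of 2906 TPM in ACM and 2671 TPM in UCM, and SPARC had 1681 and 1770 TPM. EPCAM, KRT8, KRT18 and KRT19, which mark epithelial cells, were each below 1 TPM in all 6 libraries, as was CDH1. CDH3, the remaining marker on the epithelial list and its most abundant, had 27.7 TPM in ACM and 23.6 TPM in UCM. ESR1 and PGR had 0 counts, and ERBB2 had 27.5 TPM in ACM and 28.8 TPM in UCM. The 6 adipocyte markers summed to 5.45, 3.77 and 6.41 TPM in ACM and 3.19, 3.32 and 3.93 TPM in UCM, with CFD the most abundant and ADIPOQ, LEP and CIDEC at 0 counts. The 4 leukocyte and endothelial markers summed to 12.3, 30.6 and 21.6 TPM in ACM and 8.04, 5.66 and 5.74 TPM in UCM. Nearly all of this was CD68, a lysosomal membrane protein, which alone of the 4 passed the filter and which rose (log2 FC 1.76, adjusted p = 0.0335 by edgeR). PTPRC, the pan-leukocyte marker, had 3 to 6 counts per library, and the part of these markers in the results was not tested.

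Of the 32 snoRNA host genes, 27 passed the filter on low counts. SNHG18 and SNHG27 had no count in any library, where 3 counts would correspond to between 0.142 and 0.175 CPM. The ACM libraries held 4, 0 and 4 counts of SNHG14 and the UCM libraries 0, 1 and 0. Of SNHG22 they held 10, 6 and 7 in ACM and 12, 6 and 7 in UCM. SNHG25 had 1 count, in UCM replicate 1. These 5 members had few or no counts and were not compared.

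Among the tested members the mean TPM over the 6 libraries ran from 0.708 for SNHG31 to 402 for SNHG29, with a median of 58.5. SNHG29 was followed by SNHG5 at 314, SNHG6 at 249, GAS5 at 207, ZFAS1 at 193, SNHG32 at 168, SNHG17 at 152 and DANCR at 107 TPM, and these 8 were the members at 100 TPM or more. The order among SNHG6, GAS5 and ZFAS1 is not firm, since GAS5 ranged from 156 to 250.1 TPM and ZFAS1 from 159 to 235 TPM over the 6 libraries. Summed over all 32 members the CPM was 1172, 1024 and 924 in ACM and 1295, 1179 and 1109 in UCM. For each replicate number the ACM library had the lower sum, but the labels do not say that equal numbers mark a shared batch. The libraries were not treated as paired, and the highest ACM library lay above the lowest UCM library. The summed TPM was 2499, 2269 and 2078 in ACM and 2784, 2604 and 2432 in UCM, with the same overlap. In bulk RNA, fewer cells that make a transcript and less of it per cell cannot be told apart.

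**Figure D1:**
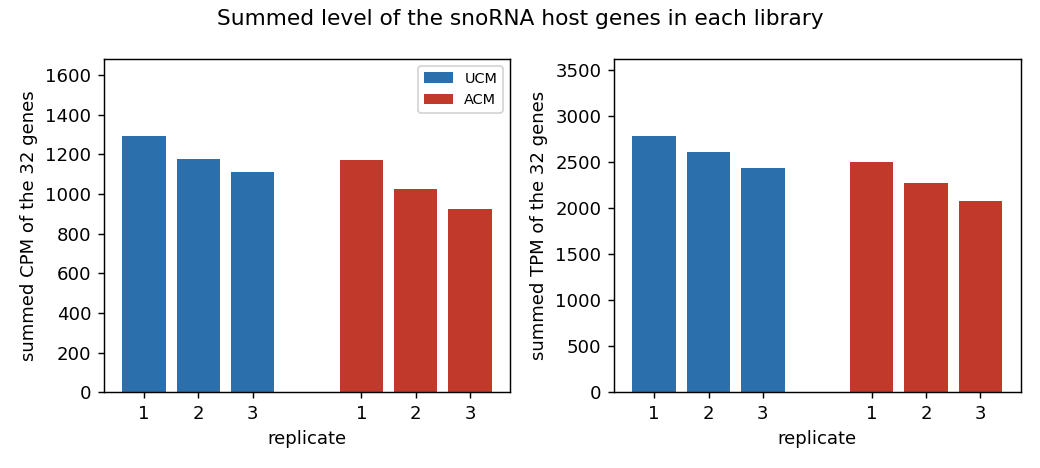
Bars show the summed CPM (left) and summed TPM (right) of the 32 snoRNA host genes in each library, by replicate number, for UCM in blue and ACM in red. Each ACM bar is lower than the UCM bar of the same replicate number, though the libraries were not treated as paired. ACM replicate 1 at 1172 CPM exceeds UCM replicate 3 at 1109 CPM.

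DANCR was the only snoRNA host gene that passed the test, and it was lower in ACM. At an adjusted p at or below 0.05 in edgeR, 1 of 27 members was lower, beside 2.21% of the 14451 genes tested (320 genes), and 0 of 27 were higher, beside 3.35% (484 genes). DESeq2 likewise gave 1 lower (3.09% of all genes) and 0 higher (5.29%), and limma-trend on log2(TPM + 1) gave 1 lower (0.913%) and 0 higher (1.59%). A count of 1 in 27 is near the share over all genes and is no result about the members as a group. With the replicate number as a block edgeR gave 5 of 27 lower and 0 higher, beside 703 and 909 of all genes. The labels do not say that the numbers mark a shared batch, so this fit is described with the alternatives. At an unadjusted p at or below 0.05, 5 of 27 members were lower in ACM (DANCR, SNHG32, SNHG10, SNHG29 and ZFAS1), beside 11.5% of all genes, and 1 was higher (SNHG28), beside 11.9%. All 3 CPM values in ACM were below all 3 in UCM for 3 of 27 members (DANCR, SNHG29 and ZFAS1), beside 15.1% of all genes. They were all above UCM for 1 of 27 (SNHG28), beside 13.9%.

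Most members nevertheless had a slightly lower estimate in ACM. The log2 FC was negative for 24 of 27 members (88.9%), beside 51.9% of all genes tested, and this count was 23 with DESeq2 or RLE size factors, 22 on log2 TPM and 21 with effective lengths as offsets. With 1 library left out it ran from 20 of 27, without UCM replicate 1, and 21 of 27, without ACM replicate 3, to 25 of 27, without ACM replicate 1 or UCM replicate 3. The median log2 FC of the members was −0.17, beside −0.01 over all genes and −0.02 over the 1590 lncRNA genes tested. The positive estimates were those of SNHG28, SNHG20 and SNHG19. Without replicate 1 of both media, a comparison added after the data had been seen, 24 of 27 members were negative with a median of −0.20. In that comparison of 4 libraries, edgeR called DANCR, SNHG3 and SNHG1 lower, 3 of 27 beside 5.04% of all genes, and 0 higher, beside 7.07%. At an unadjusted p at or below 0.05 it gave 11 of 27 lower, beside 13.9%, and 0 higher, beside 15.8%.

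**Figure D2:**
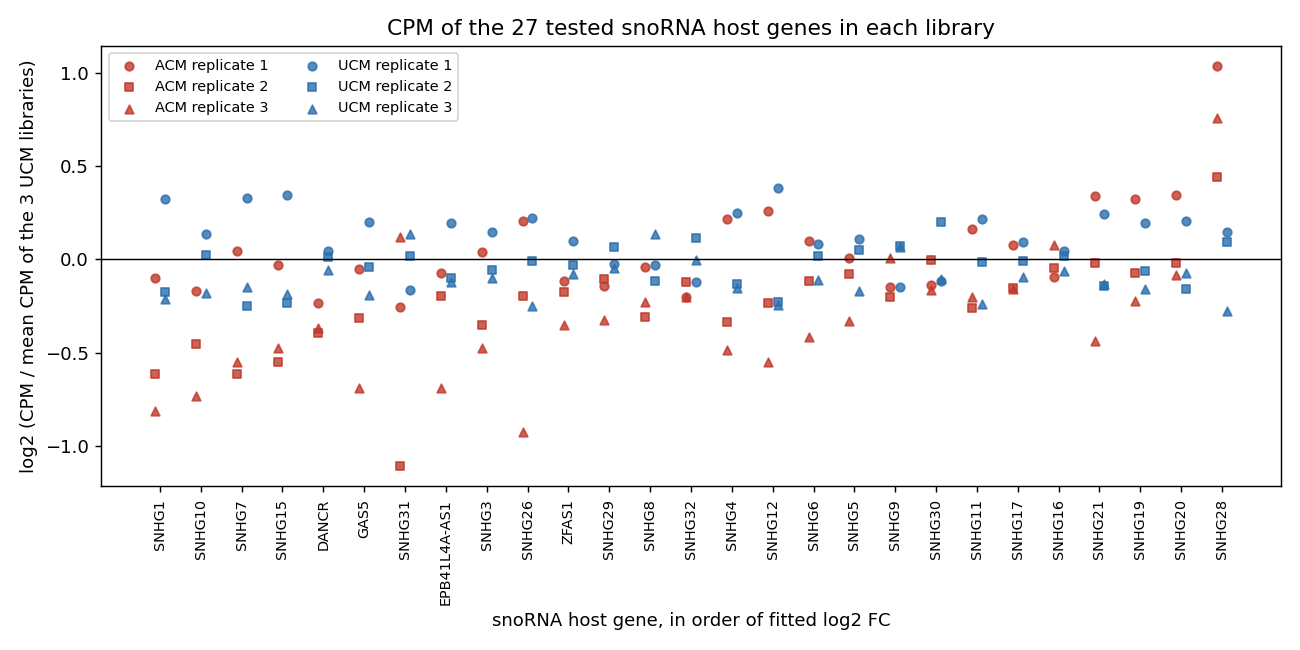
Each point is the CPM of 1 tested snoRNA host gene in 1 library, as log2 of its ratio to the mean CPM of the 3 UCM libraries, with ACM in red, UCM in blue and the replicate number by shape. Genes are ordered by fitted log2 FC. Circles (replicate 1) are often the highest points within a medium, and the ACM and UCM points overlap for most genes but not for DANCR, SNHG29, ZFAS1 or SNHG28.

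The members were next taken by the kind of small RNA that RefSeq places inside them, a grouping made after the values had been seen. Of the 11 members with only box H/ACA snoRNAs, all tested, 11 had a negative log2 FC, with a median of −0.24 and a range from −0.34 to −0.07. Of the 12 with only box C/D snoRNAs, 10 were tested and 9 were negative, with a median of −0.15 and a range from −0.48 to 0.03. GAS5 and SNHG12, which hold both kinds, were negative. Of the 3 tested scaRNA hosts 2 were negative. The difference between these groups was not tested.

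Among the box H/ACA hosts, DANCR (ENSG00000226950, chr4:52712325-52723623, plus strand) holds SNORA26 and is known for keeping progenitor cells undifferentiated. DANCR measured 43.2, 38.6 and 39.2 CPM in ACM and 52.3, 51.2 and 48.7 CPM in UCM. Every ACM value was below every UCM value, with a mean of 40.3 ± 2.45 in ACM against 50.7 ± 1.84 (SD, n = 3). DANCR fell by 0.33 on the log2 scale (SE 0.080, adjusted p = 0.0402 by edgeR). TPM of DANCR was 98.8, 91.9 and 79.6 in ACM and 131, 122 and 122 in UCM, so the groups were apart on this scale too.

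The DANCR call was close to the threshold. Over the 15 alternatives run for this gene its log2 FC stayed between −0.48 and −0.30, it was called in 9, and the adjusted p ranged from 0.0136 to 0.163. The call was lost by edgeR without ACM replicate 2 (adjusted p = 0.144), ACM replicate 3 (0.0998), UCM replicate 1 (0.0512), UCM replicate 2 (0.163) or UCM replicate 3 (0.125), and with effective lengths as offsets (0.0618). Without replicate 1 of both media the log2 FC was −0.35 (adjusted p = 0.0234 by edgeR). Exons of DANCR overlap those of ERVMER34-1, and since the sources do not say whether reads were counted by strand, reads of overlapping genes cannot be told apart.

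SNHG3 (ENSG00000242125, chr1:28505980-28510892, plus strand) holds SNORA73A and SNORA73B and lies within the locus of RCC1. SNHG3 measured 96.1, 73.3 and 67.2 CPM in ACM and 103, 89.7 and 87.3 CPM in UCM. ACM replicate 1 lay among the UCM values while the other ACM libraries lay below them. The log2 FC of SNHG3 was −0.24 (SE 0.13, adjusted p = 0.320 by edgeR). Without replicate 1 of both media it was −0.32 and passed the test (adjusted p = 0.0189 by edgeR).

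SNHG15 (ENSG00000232956, chr7:44983019-44986961, minus strand) holds SNORA9. SNHG15 measured 30.3, 21.1 and 22.3 CPM in ACM and 39.3, 26.3 and 27.2 CPM in UCM. Replicate 1 was the highest library of each medium, and its ACM value exceeded UCM replicates 2 and 3. Its log2 FC of −0.33 (SE 0.19) did not pass (adjusted p = 0.353 by edgeR), nor did −0.29 without replicate 1 of both media (adjusted p = 0.0889). With a filter of 1 count in total edgeR called it (adjusted p = 0.0442). Over its alternatives the adjusted p by edgeR ranged from 0.0357, with the replicate number as a block, to 0.674, without UCM replicate 1. The log2 FC of SNHG15 was −0.11 without UCM replicate 1 and −0.51 without ACM replicate 1.

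SNHG7 (ENSG00000233016, chr9:136721366-136728184, minus strand) holds SNORA17A and SNORA17B. SNHG7 measured 19.4, 12.3 and 12.9 CPM in ACM and 23.7, 15.9 and 17.0 CPM in UCM. Here too replicate 1 was highest in each medium and the groups overlapped through it. SNHG7 had a log2 FC of −0.34 (SE 0.22, adjusted p = 0.391 by edgeR), and −0.37 without replicate 1 of both media (adjusted p = 0.0800 by edgeR). The estimate was −0.13 without UCM replicate 1 alone and −0.58 without ACM replicate 1 alone.

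EPB41L4A-AS1 (ENSG00000224032, chr5:112160526-112164818, plus strand) is antisense to EPB41L4A and holds SNORA13. EPB41L4A-AS1 measured 11.3, 10.4 and 7.34 CPM in ACM and 13.6, 11.1 and 10.9 CPM in UCM. ACM replicate 1 overlapped the UCM values in CPM. Fitted to counts, the log2 FC was −0.30 (SE 0.18, adjusted p = 0.350 by edgeR), and −0.30 without replicate 1 of both media (adjusted p = 0.292 by edgeR). On the TPM scale the direction was the opposite, as its estimated effective length was shorter in the ACM libraries.

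The effective length of EPB41L4A-AS1 was 1228, 1095 and 788 bases in ACM and 1583, 1496 and 1365 bases in UCM. Every ACM value was shorter than every UCM value, and the ratio of the means was 0.700, the lowest among the tested members. By limma on log2 effective length this difference did not pass (unadjusted p = 0.0403, adjusted p = 0.927 by limma). Lengths were apart and shorter in ACM for this 1 of 27 members, beside 3.7% of all genes, and 0 of 27 were apart and longer, beside 5.49%. TPM of EPB41L4A-AS1 was 13.0, 13.1 and 13.4 in ACM and 12.5, 10.4 and 11.4 in UCM, so all ACM values were above all UCM values. With limma-trend its log2 FC was 0.19 on log2(TPM + 1) (adjusted p = 0.394), and edgeR with effective lengths as offsets gave 0.23 (adjusted p = 0.441). Which transcripts of the gene differed was not analysed here.

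**Figure D3:**
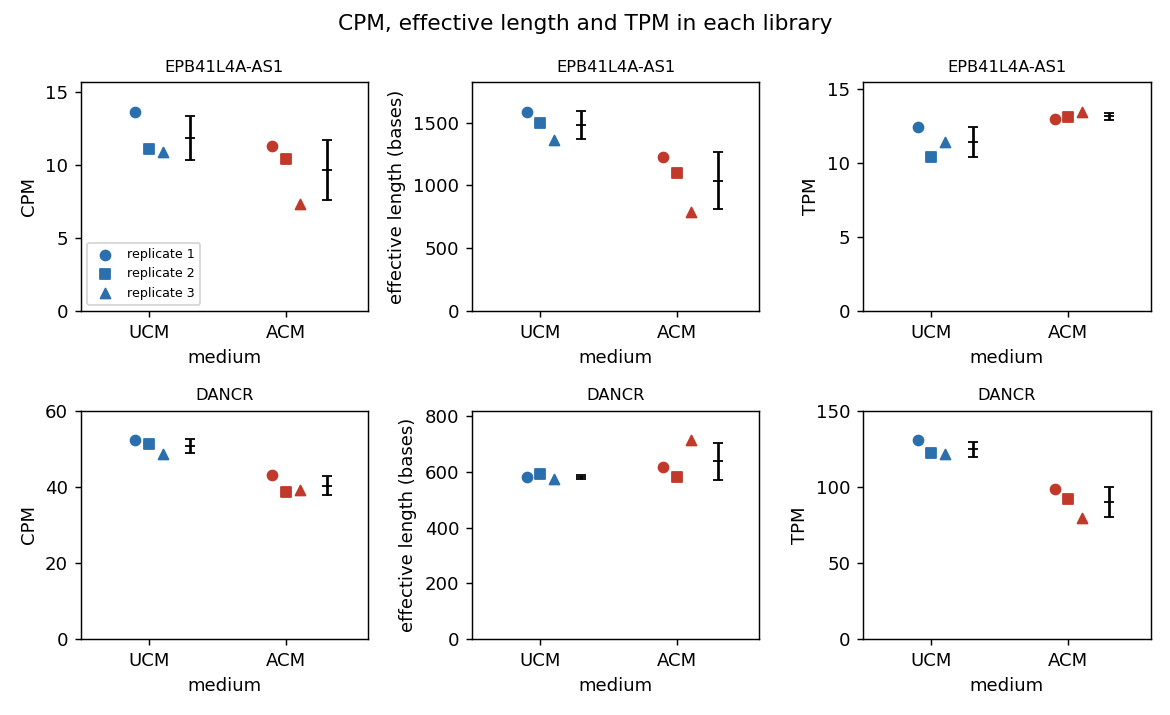
CPM, effective length in bases and TPM of EPB41L4A-AS1 (top) and DANCR (bottom) in each library, with the replicate number by shape and the mean ± SD of 3 libraries beside the points. The effective length of EPB41L4A-AS1 was shorter in every ACM library and its TPM was higher there although its CPM was lower on average, whereas both CPM and TPM of DANCR were lower in every ACM library.

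Over the 27 members the ratio of the mean effective lengths had a median of 0.992, and after EPB41L4A-AS1 it ran from 0.799 for SNHG31 to 1.10 for DANCR. SNHG31 had 1746, 652 and 1813 bases in ACM and 1806, 1809 and 1657 bases in UCM, so its low mean came from ACM replicate 2 and the groups overlapped. DANCR had 618, 582 and 712 bases in ACM and 580.0, 591 and 574 bases in UCM, so its groups overlapped and ACM replicate 3 stood out. In TPM 5 of 27 members were apart and lower in ACM (DANCR, SNHG32, SNHG10, SNHG29 and ZFAS1), beside 14.6% of all genes, and 2 of 27 were apart and higher (SNHG28 and EPB41L4A-AS1), beside 11%. Apart from EPB41L4A-AS1, the means of CPM and TPM differed in direction only for SNHG31, which was at 0.677 CPM in ACM and 0.850 CPM in UCM, and at 0.720 and 0.697 TPM.

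Of the hosts of box C/D snoRNAs, SNHG29 (ENSG00000175061, chr17:16438767-16480249, plus strand) holds SNORD49A, SNORD49B and SNORD65 and was the most abundant member. SNHG29 measured 194, 199 and 170.4 CPM in ACM and 210.3, 224 and 207 CPM in UCM. The groups did not overlap, and ACM replicate 3 was the lowest library. SNHG29 did not pass, with a log2 FC of −0.19 (SE 0.075, adjusted p = 0.169 by edgeR), and −0.21 without replicate 1 of both media (adjusted p = 0.118 by edgeR).

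ZFAS1 (ENSG00000177410, chr20:49278178-49299600, plus strand) lies head to head with ZNFX1 and holds SNORD12, SNORD12B and SNORD12C. ZFAS1 measured 62.6, 60.0 and 53.1 CPM in ACM and 72.7, 66.5 and 64.3 CPM in UCM. All ACM values were below all UCM values, though ACM replicate 1 and UCM replicate 3 lay close. ZFAS1 did not pass either, with a log2 FC of −0.21 (SE 0.086, adjusted p = 0.170 by edgeR), and −0.20 without replicate 1 of both media (adjusted p = 0.131 by edgeR).

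SNHG32 (ENSG00000204387, chr6:31834608-31839766, plus strand) lies in the major histocompatibility complex and holds SNORD48 and SNORD52. SNHG32 measured 73.6, 78.0 and 73.7 CPM in ACM and 77.9, 91.6 and 84.5 CPM in UCM. The groups touched at ACM replicate 2 and UCM replicate 1. Its log2 FC was −0.17 (SE 0.078, adjusted p = 0.210 by edgeR), and −0.20 without replicate 1 of both media (adjusted p = 0.0918 by edgeR).

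SNHG1 (ENSG00000255717, chr11:62851978-62855953, minus strand) holds a cluster of box C/D snoRNAs, SNORD22 and SNORD25 to SNORD31, and had the lowest log2 FC of the tested members. SNHG1 measured 76.2, 53.3 and 46.5 CPM in ACM and 102, 72.4 and 70.4 CPM in UCM. Replicate 1 was well above the other replicates in both media, and ACM replicate 1 exceeded UCM replicates 2 and 3. Over all 6 libraries the log2 FC of −0.48 (SE 0.23) did not pass (adjusted p = 0.275 by edgeR). Without replicate 1 of both media it was −0.50 and passed (adjusted p = 0.00518 by edgeR). Without UCM replicate 1 alone it was −0.27 (adjusted p = 0.482 by edgeR), and without ACM replicate 1 alone −0.71 (adjusted p = 0.0913 by edgeR).

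GAS5 (ENSG00000234741, chr1:173858559-173868882, minus strand) accumulates in growth-arrested cells, and its RNA can bind the glucocorticoid receptor. GAS5 measured 89.3, 74.4 and 57.5 CPM in ACM and 107, 90.1 and 81.3 CPM in UCM. ACM replicate 1 overlapped the UCM values, and the spread within ACM was wide, with a mean of 73.7 ± 15.9 CPM against 92.6 ± 12.8 CPM for UCM (SD, n = 3). The edgeR estimate for GAS5 was a log2 FC of −0.33 (SE 0.17, adjusted p = 0.299), and −0.37 without replicate 1 of both media (adjusted p = 0.0946). With a filter of 1 count in total edgeR called GAS5 at −0.33 (adjusted p = 0.00603), and over its alternatives the adjusted p ranged up to 0.511.

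SNHG5 (ENSG00000203875, chr6:85650491-85678932, minus strand) holds SNORD50A and SNORD50B. SNHG5 measured 78.9, 74.2 and 62.5 CPM in ACM and 84.7, 81.2 and 69.7 CPM in UCM, and the groups overlapped. The log2 FC was −0.13 (SE 0.10, adjusted p = 0.505 by edgeR), and −0.13 without replicate 1 of both media (adjusted p = 0.430 by edgeR). SNHG6 (ENSG00000245910, chr8:66920561-66926398, minus strand) holds SNORD87. SNHG6 measured 54.1, 46.6 and 37.9 CPM in ACM and 53.6, 51.3 and 46.9 CPM in UCM. ACM replicate 1 was the highest of all 6 libraries and ACM replicate 3 the lowest. The log2 FC was −0.13 (SE 0.12, adjusted p = 0.576 by edgeR), and −0.20 without replicate 1 of both media (adjusted p = 0.225 by edgeR). For SNHG6 it was −0.009 without ACM replicate 3 and −0.25 without ACM replicate 1.

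SNHG10 (ENSG00000247092, chr14:95521943-95534889, minus strand) is a scaRNA host, with SCARNA13 inside. SNHG10 measured 8.03, 6.59 and 5.44 CPM in ACM and 9.95, 9.19 and 7.99 CPM in UCM. The groups touched at ACM replicate 1 and UCM replicate 3. SNHG10 had a log2 FC of −0.43 (SE 0.18, adjusted p = 0.174 by edgeR), and −0.50 without replicate 1 of both media (adjusted p = 0.0990 by edgeR). Its TPM was 8.40, 7.75 and 9.42 in ACM and 13.4, 11.1 and 10.5 in UCM, with the groups apart.

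SNHG28 (ENSG00000188004, chr1:159834480-159855071, minus strand) was the member with the highest log2 FC and was of low abundance. SNHG28 measured 2.90, 1.92 and 2.39 CPM in ACM and 1.56, 1.51 and 1.17 CPM in UCM, which rest on 61, 34 and 44 counts for ACM and 33, 28 and 20 for UCM. All ACM values were above all UCM values. The log2 FC was 0.76 (SE 0.29) and did not pass (adjusted p = 0.152 by edgeR), and it was 0.70 without replicate 1 of both media (adjusted p = 0.227 by edgeR). Its effective length was uneven in ACM, at 2226, 742 and 1356 bases, beside 1654, 1576 and 1479 bases in UCM.

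The other 13 tested members (SNHG4, SNHG8, SNHG9, SNHG11, SNHG12, SNHG16, SNHG17, SNHG19, SNHG20, SNHG21, SNHG26, SNHG30 and SNHG31) had log2 FC between −0.32 and 0.09, with adjusted p from 0.425 to 0.998 by edgeR. They include abundant members such as SNHG17, at 152 TPM with a log2 FC of −0.07 (SE 0.085), and SNHG31 at 0.708 TPM with −0.32 (SE 0.42).

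**Figure D4:**
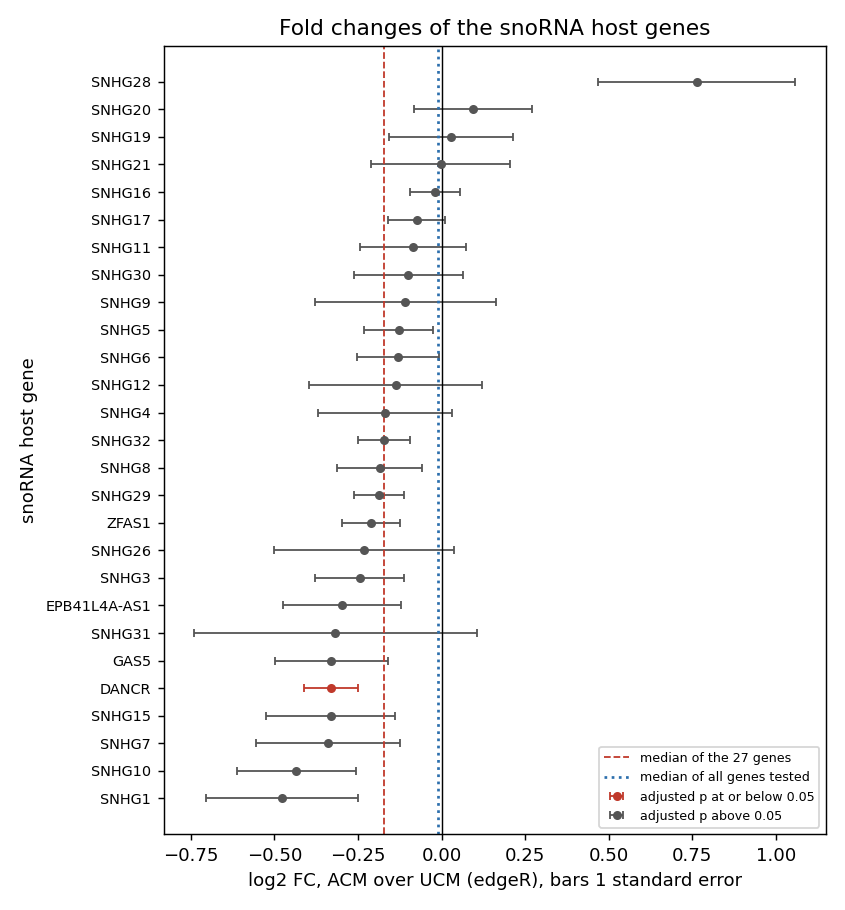
Fitted log2 FC of the 27 tested snoRNA host genes, ACM over UCM, with bars of 1 standard error. DANCR, in red, passed the test, the dashed line is the median of the 27 genes (−0.17) and the dotted line the median of all genes tested (−0.01).

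Many snoRNA host genes overlap a protein-coding gene or share its promoter region. The annotation gave 37 protein-coding neighbours that overlap a member or start within 2000 bases of it on the other strand, and 19 were tested, beside 16 members. Exons of 13 of the 19 overlap those of the member, so for these pairs the assignment of reads is uncertain. A negative log2 FC was found for 11 of 19, beside 51.9% of all genes tested. At the adjusted p by edgeR 1 of 19 passed, beside 2.21% lower and 3.35% higher over all genes. Both counts are near these shares and are no result about the neighbours as a group. The neighbour that passed was ACAA2, a thiolase of mitochondrial fatty acid oxidation that starts 12 bases from SNHG22. ACAA2 measured 92.7, 112.5 and 110.6 CPM in ACM and 61.7, 72.6 and 62.6 CPM in UCM, with every ACM value higher. It rose by a log2 FC of 0.68 (SE 0.096, adjusted p = 0.00477 by edgeR), while SNHG22 itself was too low to test.

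No protein-coding neighbour of DANCR passed the filter. For ZNFX1, the head-to-head neighbour of ZFAS1, the log2 FC was 0.07. A second gene model of MATR3, on the strand of SNHG4, had −0.89 (adjusted p = 0.165 by edgeR), and SIL1, which overlaps SNHG4, had 0.19.

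SLC3A2, the heavy chain of amino acid transporters, starts 51 bases from SNHG1 and measured 275, 275 and 272 CPM in ACM and 297, 298 and 291 CPM in UCM. Its libraries were close within each medium, and its log2 FC was −0.11 (adjusted p = 0.307 by edgeR). RCC1, the exchange factor of Ran, shares strand and exons with SNHG3 and had a log2 FC of −0.21 (adjusted p = 0.151 by edgeR). RPS2, which starts 54 bases from SNHG9, had −0.09, and TRAF7, near SNHG19, had 0.19 (adjusted p = 0.109 by edgeR). UBE3A, opposite SNHG14, had −0.18, and PRSS12, opposite SNHG8, had 0.27 (adjusted p = 0.164 by edgeR). Other neighbours were TRNAU1AP with −0.20 (SNHG12), BARD1 with −0.16 (SNHG31), GLRX5 with −0.13 (SNHG10), ZBTB37 with −0.17 (GAS5), DIPK1B with 0.03 (SNHG7) and SEC14L1 with 0.04 (SNHG20).

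The snoRNA host genes were set beside genes that work with them. A chosen list of 42 protein-coding hosts of snoRNAs outside the ribosomal proteins had a median log2 FC of −0.12, with 35 negative. It does not hold all such genes. At the adjusted p by edgeR 5 of the 42 were lower and 1 higher, beside 2.21% and 3.35% of all genes. DESeq2 gave 6 lower and 1 higher, and limma-trend on log2(TPM + 1) 1 lower and 0 higher, so on the TPM scale only the call of HSPA8 remained. At an unadjusted p at or below 0.05 edgeR gave 17 of 42 lower, beside 11.5% of all genes, and 1 higher, beside 11.9%, and CPM were apart and lower for 17 of 42, beside 15.1%, and apart and higher for 2, beside 13.9%. The chaperone HSPA8 (−0.37, adjusted p = 0.0164 by edgeR), the nucleolar protein NCL (−0.32, adjusted p = 0.0320), the pseudouridine synthase DKC1 (−0.26, adjusted p = 0.0335), and the translation factors EIF4G2 (−0.30, adjusted p = 0.0354) and EIF4A1 (−0.28, adjusted p = 0.0424) fell. COPA, a coat protein of vesicles, rose (0.28, adjusted p = 0.0396 by edgeR). RACK1 was the most abundant of the list, at 2130 TPM with a log2 FC of 0.03.

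Taken without a list, 240 tested genes other than the members hold a snoRNA in GENCODE 44, and their median log2 FC was −0.07, with 160 negative. At the adjusted p 8 were lower and 5 higher by edgeR (2.21% and 3.35% of all genes), 11 and 9 by DESeq2, and 3 and 1 by limma-trend on log2(TPM + 1), where LAMB1 and DGLUCY did not pass. Unadjusted, edgeR gave 42 of 240 lower and 16 higher at p at or below 0.05, beside 11.5% and 11.9% of all genes. The smallest p-values among them were those of P4HA3 (0.78, adjusted p = 0.00232 by edgeR), LAMB1 (0.45, 0.0138) and DGLUCY (0.56, 0.0141), which rose, and of the initiation factor EIF5 (−0.51, 0.00401), which fell. Among the 13 tested lncRNA genes of this kind the median was −0.06, and 0 were lower and 0 higher by edgeR, DESeq2 or limma-trend, and 1 lower and 1 higher at an unadjusted p at or below 0.05 by edgeR, beside 11.5% and 11.9% of all genes. MIR31HG was the most abundant of these 13, at 14.4 TPM. The 226 tested protein-coding genes among them had a median of −0.07. Without the ribosomal protein genes 197 remained, with a median of −0.08 and 132 negative. Of these 197, edgeR gave 8 lower and 5 higher at the adjusted p, beside 2.21% and 3.35% of all genes. At an unadjusted p at or below 0.05 it gave 37 lower and 15 higher, beside 11.5% and 11.9%.

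The 97 tested ribosomal protein genes, the best known genes with a TOP tract, had a median log2 FC of −0.08, with 77 negative (79.4%). RPS26 (−0.44, adjusted p = 0.0126 by edgeR), RPL22L1 (−0.65, adjusted p = 0.0390) and RPS27L (−0.37, adjusted p = 0.0423) fell, 3 of 97 beside 2.21% of all genes, and none rose, beside 3.35%. At the adjusted p, DESeq2 gave 4 lower and 0 higher, and limma-trend on log2(TPM + 1) gave 2 lower and 0 higher, without RPL22L1. At an unadjusted p at or below 0.05 edgeR gave 12 of 97 lower, beside 11.5% of all genes, and 2 higher, beside 11.9%. RPL36AL came next (−0.28, adjusted p = 0.0580 by edgeR), and RPL10 was the most abundant at 5186 TPM. A narrower set of 84, without kinase, read-through and binding protein genes, had a median of −0.08. In that set 12 of 84 were lower and 0 higher at an unadjusted p at or below 0.05 by edgeR. The summed CPM of the 97 genes was 38911, 41651 and 39630 in ACM and 38713, 43488 and 42157 in UCM, so this sum was not highest in replicate 1 of either medium. That of the snoRNA host genes was, but this was not particular to them. The 13 other tested lncRNA genes that hold a snoRNA summed to 77.1, 65.0 and 54.8 CPM in ACM and 77.4, 60.2 and 55.0 CPM in UCM. The sums of all lncRNA genes and of the 19 nonsense-mediated decay factors were highest in replicate 1 of both media as well. Those of the 42 listed protein-coding hosts and of the 21 snoRNP proteins and assembly factors were not.

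The 21 snoRNP proteins and assembly factors had a median log2 FC of −0.09, with 19 negative, 1 lower and 1 higher by edgeR, beside 2.21% and 3.35% of all genes. With no adjustment, 7 of 21 were lower at p at or below 0.05 by edgeR and 2 higher, beside 11.5% and 11.9%. DESeq2 gave 2 lower and 1 higher, and limma-trend on log2(TPM + 1) 0 lower and 1 higher, so the DKC1 call was not made there. DKC1, the catalytic subunit of H/ACA particles, fell as given above, from 254, 260.1 and 253 CPM in UCM to 218, 209 and 212 CPM in ACM. PIH1D1, a subunit of the R2TP assembly complex, rose (0.39, adjusted p = 0.0339 by edgeR). NOP56, a core protein of C/D particles, had −0.27 (adjusted p = 0.0503 by edgeR), RPAP3 of R2TP had −0.26, and NHP2 was the most abundant at 602 TPM. DKC1, NOP56 and NOP58 also stand on the list of protein-coding hosts.

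Of the 19 nonsense-mediated decay factors, which degrade spliced host RNAs, 17 had a negative log2 FC, with a median of −0.09. PNRC2, a decapping adaptor, fell (−0.31, adjusted p = 0.0217 by edgeR). EIF4A3 (−0.28), SMG6 (−0.25) and RBM8A (−0.13) did not pass, and none of the 19 rose, so 1 was lower and 0 higher, beside 2.21% and 3.35% of all genes. DESeq2 gave 1 lower and 0 higher, while limma-trend on log2(TPM + 1) gave 0 lower and 0 higher, so the PNRC2 call was not made there. At an unadjusted p at or below 0.05 edgeR gave 3 of 19 lower, beside 11.5% of all genes, and 0 higher, beside 11.9%. RNPS1 was the most abundant, at 283 TPM.

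The 16 genes that open intron lariats or trim snoRNA ends had a median log2 FC of −0.11, with 10 negative. By edgeR 0 of 16 passed, as by DESeq2 and limma-trend, and 5 were lower at an unadjusted p at or below 0.05, beside 11.5% of all genes, and 0 higher, beside 11.9%. The 5 were the helicase MTREX (−0.20) and the exosome subunits EXOSC9 (−0.24), EXOSC10 (−0.15), EXOSC3 (−0.15) and EXOSC7 (−0.25), of which EXOSC3 was the most abundant gene of the list at 149 TPM.

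The 13 regulators of TOP transcripts had a median log2 FC of −0.09, with 9 negative, 1 lower and 2 higher by edgeR, beside 2.21% and 3.35% of all genes. Without adjustment 2 of 13 were lower and 2 higher at p at or below 0.05, beside 11.5% and 11.9%. DESeq2 gave the same counts, and limma-trend on log2(TPM + 1) gave 0 lower and 1 higher, so the calls of EIF4E and MYC were not made there. EIF4EBP1, a repressor of cap-dependent translation under mTOR control and the most abundant of the list at 655 TPM, rose (0.50, adjusted p = 0.00401 by edgeR), as did the transcription factor MYC (0.30, adjusted p = 0.0371). The cap-binding protein EIF4E fell (−0.32, adjusted p = 0.0316 by edgeR), and the La protein SSB had −0.18 (adjusted p = 0.173).

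**Figure D5:**
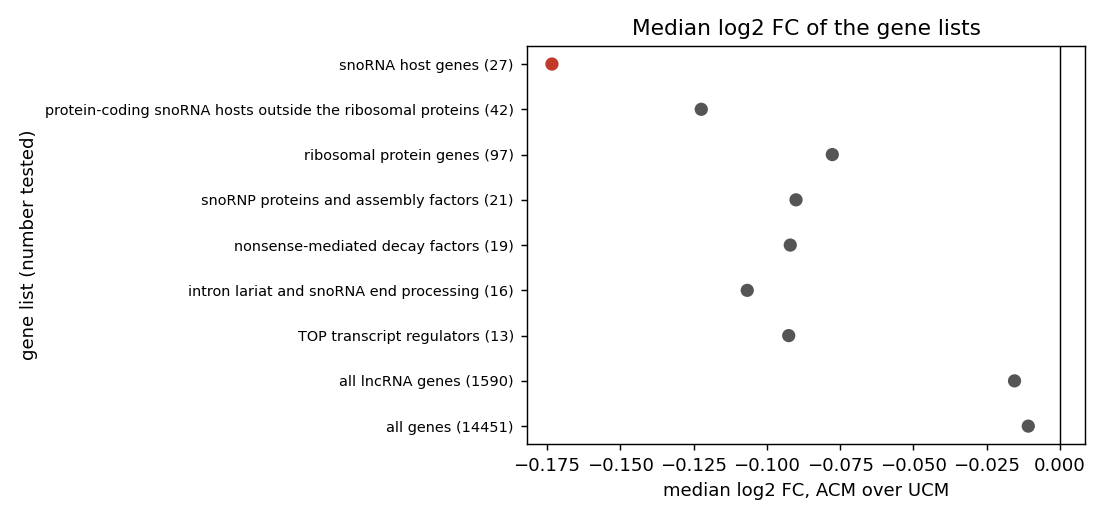
Median log2 FC, ACM over UCM, of the tested genes on each list shown, with the number tested in brackets. The snoRNA host genes, in red, are at −0.17, and all lncRNA genes and all genes tested at −0.02 and −0.01. The chosen list of protein-coding hosts outside the ribosomal proteins, ribosomal protein genes and snoRNP proteins lie between −0.12 and −0.08. So do nonsense-mediated decay factors, intron lariat and snoRNA end processing genes and TOP regulators. Medians outside this range were −0.07 for the other genes that hold a snoRNA and −0.06 for the lncRNA genes among them.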

How the data were processed

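According to the study's methods, reads of polyA-enriched paired-end libraries were trimmed (Trim Galore), aligned to GRCh38 (STAR) and counted per gene (RSEM). Tool versions, annotation release and strand setting are not given in the sources used here. For each library the authors deposited RSEM's expected counts, which share ambiguous reads between genes and are not scaled for library size. TPM, deposited by the authors, is scaled by effective length, and the effective length in bases, also deposited, averages a gene's transcripts in proportion to their estimated abundance. Another deposited file holds the authors' own DESeq2 fold changes and p-values and was not used. Of 63140 gene identifiers, 62541 matched GENCODE 44 (61547 with version), which gave symbols, positions and overlaps. Sequences are from RefSeq and from the GRCh38 sequence at GENCODE starts. The 4 members without a RefSeq window are SNHG15, SNHG6, SNHG9 and SNHG25.

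Expected counts were rounded and fitted for all genes passing filterByExpr with edgeR 4.0.16 in R 4.3.3 (TMM, robust quasi-likelihood, no term besides the medium), with Benjamini-Hochberg adjustment across the 14451 genes tested. The common coefficient of biological variation was 0.115. The procedure was tested on simulated data. Gene lists are described by counts and medians, with no test of a list. CPM of a gene at 0 is limited by 3 counts, which covers counting error only. Effective lengths were described by whether the groups overlap, and in addition, chosen after the data had been seen, tested by robust limma on log2 effective length, adjusted over all genes tested. CPM use the counts of the genes tested as library size, times the TMM factor.

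Members given in full were those that passed or had the smallest p-values, up to 12, with GAS5, DANCR, ZFAS1, EPB41L4A-AS1, SNHG1, the 3 most abundant in TPM, and up to 5 with effective lengths apart. Lists name up to 4 genes by p-value and the most abundant gene, and the tested neighbours are named except for 3 that, like 1 start sequence, are not reported here. EIF4A1 and COPA, EXOSC7 and single low members were named to complete small counts, after their values had been seen. The members and lists were chosen with earlier results of these data known. Alternatives were DESeq2 1.42.0, RLE size factors, filters of 1 count in total and 10 counts in every library, limma-trend (limma 3.58.1) on log2 TPM with 1 or 0.1 added, effective lengths as offsets, a replicate block, each library left out, and members without overlapping exons.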

Additional observations from a re-analysis of the deposited data

How the results depend on the processing

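The median log2 FC of the members was negative in all 17 alternatives, between −0.25 and −0.11 where more than 1 member was used, and 0 members were higher at the adjusted p in each of them. The number of members lower, 1 by edgeR, was 3 with a filter of at least 1 count in total (DANCR, SNHG15 and GAS5), 0 with effective lengths as offsets, and between 0 and 1 when each library was left out. It was 0 for the 1 tested member with no exon overlap, SNHG31, whose own log2 FC of −0.32 stands for the median there. In comparisons chosen after seeing the data it was 3 without replicate 1 of both media and 0 for the 7 members that overlap only small RNA genes. With TPM in place of CPM, also chosen after seeing the data, 5 members were apart and lower, against 3, and 2 were apart and higher, against 1. The cause was not tested. By limma on log2 effective length, likewise added after seeing the data, 0 members were shorter, against 1 with lengths apart, and 0 longer. Over all genes edgeR called 484 higher and 320 lower, DESeq2 764 and 447, the filter of 1 count 1045 and 679, limma-trend on log2(TPM + 1) 230 and 132, on log2(TPM + 0.1) 234 and 138, offsets 272 and 134, and the comparison without replicate 1 of both media 1017 and 726. Leaving out single libraries gave 125 to 738 higher and 62 to 572 lower.

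The direction of EPB41L4A-AS1 was reversed on log2(TPM + 1) at 0.19, on log2(TPM + 0.1) at 0.20 and with effective lengths as offsets at 0.23, which are the alternatives that use its shorter effective length in ACM. Of the other values for the 14 members given in full, 193 kept their direction and their side of the threshold, 8 gained a call and 6, all for DANCR, lost it. With 1 library left out the log2 FC ran from −0.41 to −0.15 for SNHG3 and from −0.49 to −0.18 for GAS5. The range was −0.42 to −0.14 for EPB41L4A-AS1 and −0.20 to −0.04 for SNHG5. Of the 13 tested members not given in full, 9 changed sign in at least 1 alternative (23 of 194 values, 7 of them for SNHG21), and 0 gained a call.

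With the replicate number as a block (replicate block), 5 members were lower, DANCR (adjusted p = 0.0193 by edgeR), SNHG15 (0.0357), GAS5 (0.0125), SNHG3 (0.0431) and SNHG1 (0.00175), with a median of −0.18, and 909 genes were higher and 703 lower in all. Deviations from the group means of same-numbered libraries correlated at 0.318, 0.0347 and 0.177 across all genes tested, where ACM replicate 3 correlated best with UCM replicate 2 (0.196). Across the 27 members they correlated at 0.860, 0.233 and 0.673, and each ACM library correlated best with the UCM library of its own number. The labels do not say that the numbers mark a shared batch, and over all genes not every pair correlated above 0.1, so the libraries were not treated as paired.

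Limits of depth concern the members with few counts, such as SNHG28, SNHG31 and the 5 not tested, and the small RNAs inside the members, which these libraries hardly cover. Reads of overlapping genes cannot be told apart.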
